A study of Mus musculus with 10 samples.

Results

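The lipid-handling genes of macrophages described here are 10 named genes: the lipid-sensing receptor gene Trem2 and the lysosomal glycoprotein gene Gpnmb, the apolipoprotein gene Apoe, the lipase gene Lpl, the fatty acid-binding protein genes Fabp4 and Fabp5, the lipid droplet coat gene Plin2, the cholesterol exporter genes Abca1 and Abcg1, and Nr1h3, which encodes the nuclear receptor LXRα. They are found by symbol in each sample's table, and all 10 were present among the 46956 loci with a symbol. RNA was sequenced from tumour-associated macrophages of BALB/cJ mice carrying 4T1 mouse breast carcinoma cells in the mammary fat pad. In the vehicle group (PBS, 5 samples) tumours were harvested and sorted on day 14, and in the JHU083 group (5 samples) mice had received the drug at 1 mg/kg from day 7 to day 13 before the same harvest on day 14. The drug is an inactive precursor that releases 6-diazo-5-oxo-L-norleucine, a blocker of enzymes that use glutamine. The gate kept live CD45+ CD11b+ F4/80+ cells that were CD8-, Ly6C- and Ly6G-, so Ly6C-positive monocytic cells lie outside these data, and every sample is a tumour from 1 implanted cell line in 1 mouse strain. The labels number the samples within each group and do not say whether each came from a separate mouse, so p-values measure the spread between these samples.

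Macrophages that clear dying cells and lipoproteins take up large amounts of lipid, which they hydrolyse in lysosomes, store as neutral lipid in droplets or export. Cholesterol is exported by ABCA1 and ABCG1 onto lipoprotein particles, some of which carry apolipoprotein E, and oxysterols acting on LXR receptors are known to raise the transcription of these exporters. TREM2 senses lipids and apolipoproteins at the surface through its adaptor TYROBP, and a Trem2, Gpnmb, Lpl, Fabp5 and Apoe signature is the usual description of lipid-associated macrophages in fat, artery wall and tumour.

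Libraries held 11147723 to 15740488 fragments, with a mean of 12744705 in vehicle and 14617310 in JHU083, and 12500 loci passed the filter on low counts. Across them, edgeR's quasi-likelihood test called 2296 loci higher in JHU083 and 2293 lower at an adjusted p under 0.05. The macrophage character of the samples was visible in Adgre1, which encodes F4/80, at 595 ± 39.3 CPM (SD, n = 5) in vehicle and 922 ± 39.3 in JHU083, and in Itgam, which encodes CD11b, at 687 ± 46.1 and 702 ± 50.5. CPM is the depth-scaled fragment count, with each library scaled by its TMM factor. Of the samples, 3 of vehicle and 2 of JHU083 list 2 ribosomal RNA loci at 0, and in the remainder these loci hold 2.87% to 5.59% of fragments, so each gene was also compared within each of these sets. In sorted bulk RNA, more cells of a type and more RNA per cell cannot be told apart.

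Of the 10 lipid-handling genes, 7 were higher in JHU083 (Trem2, Gpnmb, Apoe, Lpl, Plin2, Abca1 and Abcg1), 0 were lower, and Fabp4, Fabp5 and Nr1h3 did not pass the test. Fabp5 would count as lower at an unadjusted p under 0.05 (1 gene), and DESeq2 and limma-voom both gave 7 higher and 0 lower. At the adjusted threshold edgeR called 18.4% of all loci as higher and 18.3% as lower, 36.7% in either direction. The median log2 fold change was 0.79 over the 10 genes and 0.01 over all loci tested. In 6 of the 10 every JHU083 sample lay above every vehicle sample, against 11.2% of all loci. The count of 7 higher genes was also found in both sets of samples defined by the ribosomal loci, where 4.18% and 9.86% of loci were higher and 4.61% and 11.9% were lower.

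**Figure D1:**
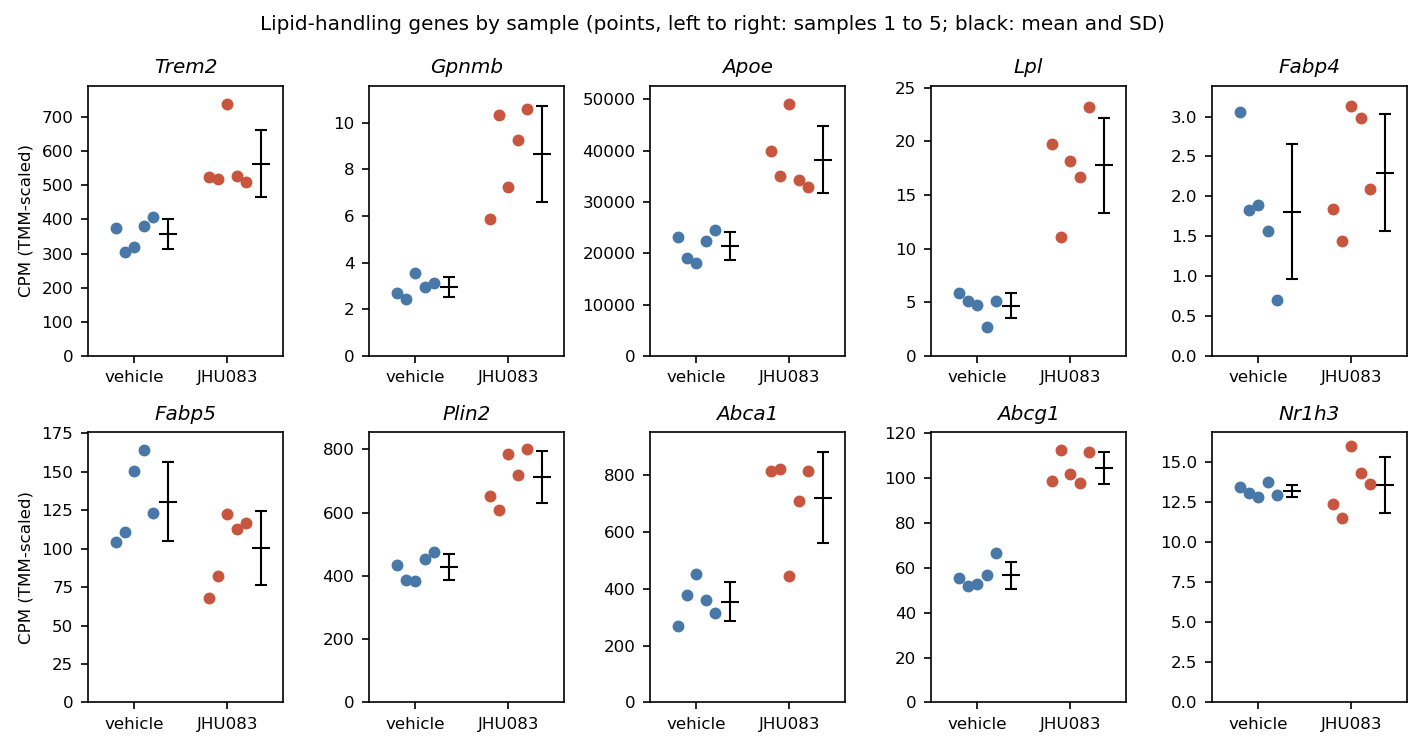
Each panel plots 1 lipid-handling gene in the 5 vehicle and 5 JHU083 samples, in CPM on a linear axis that starts at 0, with the group mean and SD in black. The groups are apart for Trem2, Gpnmb, Apoe, Lpl, Plin2 and Abcg1, while for Abca1 the third JHU083 sample, at 444 CPM, falls below the highest vehicle sample, at 452 CPM.

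Promoter windows of 300 bases (250 before and 50 after an annotated start) were given by the RefSeq promoter table, on build GRCm38.p6, for Apoe, Trem2, Gpnmb, Plin2, Abca1 and Nr1h3. Windows of Lpl, Fabp4, Fabp5 and Abcg1 are not used here. Those of Trem2, Plin2 and Abca1 are shown because 3 genes of different steps rose together and because their windows hold a searched motif, in capitals: the palindromic E-box CACGTG, bound by MiT-family and other factors, or the nuclear receptor half-site AGGTCA, which reads TGACCT on the opposite strand. Positions are counted from the annotated start.

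Trem2, chr17:48346151-48346450, plus strand, half-site at -68:
Trem2: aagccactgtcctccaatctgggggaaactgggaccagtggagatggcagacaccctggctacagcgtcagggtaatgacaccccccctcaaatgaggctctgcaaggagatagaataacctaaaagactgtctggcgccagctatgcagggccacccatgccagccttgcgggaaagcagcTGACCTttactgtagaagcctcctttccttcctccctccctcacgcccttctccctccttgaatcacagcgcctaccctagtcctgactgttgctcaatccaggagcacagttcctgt

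Plin2, chr4:86670010-86670309, minus strand, half-site at -218 and E-box at -4:
Plin2: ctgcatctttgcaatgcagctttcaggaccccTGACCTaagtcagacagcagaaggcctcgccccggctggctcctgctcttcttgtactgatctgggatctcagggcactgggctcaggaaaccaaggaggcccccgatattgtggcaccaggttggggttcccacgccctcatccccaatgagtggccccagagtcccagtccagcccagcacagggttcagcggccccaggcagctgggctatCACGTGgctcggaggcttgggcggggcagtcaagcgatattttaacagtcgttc

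Abca1, chr4:53159846-53160145, minus strand, E-box at -147:
Abca1: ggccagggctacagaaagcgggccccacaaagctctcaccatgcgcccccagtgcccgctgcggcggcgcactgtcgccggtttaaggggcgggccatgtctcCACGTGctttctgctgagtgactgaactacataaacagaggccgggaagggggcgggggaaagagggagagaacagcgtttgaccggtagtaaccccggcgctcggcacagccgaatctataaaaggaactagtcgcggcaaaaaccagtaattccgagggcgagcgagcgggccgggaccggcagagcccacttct

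The E-box was in 7.15% of the 32851 windows of the table and the half-site in 16.3%, searched on both strands, so neither is rare. The full repeats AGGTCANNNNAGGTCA, the arrangement bound by LXR with its partner RXR, and AGGTCANAGGTCA, that of PPAR with RXR, each of which contains the half-site, matched in none of the 9 windows of these 6 genes. They matched in only 0.0152% and 0.0396% of all windows. Only these exact letters were searched, so imperfect repeats were not looked for. With a string this rare, the lack of a match does not show that these windows hold no LXR or PPAR element. The E-box and the half-site matched in none of the windows of Apoe (3 windows), Gpnmb (1) and Nr1h3 (2). A match is a string of letters and not a measured binding site.

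Trem2 (chr17:48346401-48354147, plus strand) encodes the surface receptor of the group. It stood at 374, 304, 320, 382 and 408 CPM in vehicle samples 1 to 5 and at 525, 517, 739, 527 and 510 CPM in JHU083 samples 1 to 5. The groups did not overlap, and the third JHU083 sample stood above the other 4. Group means were 358 ± 43.9 CPM for vehicle against 563 ± 98.2 CPM for JHU083 (SD, n = 5). The fitted log2 fold change was 0.66 ± 0.11 (SE; edgeR adjusted p = 0.000582). Without that sample the log2 fold change was 0.54. Tyrobp, the gene of its signalling adaptor, was at 588 ± 54.3 and 646 ± 109 CPM, a log2 fold change of 0.14 ± 0.11 that did not pass the test (adjusted p = 0.332).

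Within each sample the log2 ratio of Trem2 to Tyrobp fragments was -0.76, -0.82, -0.71, -0.67 and -0.65 in vehicle and -0.41, -0.09, -0.14, -0.17 and -0.19 in JHU083. All 5 JHU083 ratios lay above all 5 vehicle ratios, a difference of 0.52 in an exact two-sided permutation test (p = 0.0079, the smallest that 5 samples against 5 can give; adjusted over the 7 gene pairs compared, 0.0185). The receptor transcript thus rose relative to that of its adaptor, whatever the scaling of the libraries. Of 12 other genes, of Trem2 signalling and shedding or of related Trem receptors, all tested, 3 were higher and 1 was lower. Their median log2 fold change was 0.13. Syk, the kinase recruited by TYROBP, went from 208 ± 11.7 to 283 ± 16.5 CPM, a log2 fold change of 0.45 ± 0.07 (adjusted p = 0.000211), without passing among samples with the ribosomal loci at 0 alone (0.43). Treml2, a neighbouring receptor gene of the Trem cluster, rose by 0.49 ± 0.08 on the log2 scale (adjusted p = 0.000444), and the third higher gene was Adam10, which encodes a sheddase of TREM2. Trem3, another receptor gene of the cluster, went from 7.42 ± 1.10 to 3.76 ± 1.11 CPM, a log2 fold change of -0.98 ± 0.20 (adjusted p = 0.00164), or -0.63 without a call among samples with the ribosomal loci at 0.

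Gpnmb (chr6:49036546-49070929, plus strand) encodes a lysosomal membrane glycoprotein that macrophages make under lysosomal load. Its level was low, at 2.72, 2.44, 3.55, 2.95 and 3.13 CPM in vehicle and 5.86, 10.4, 7.23, 9.25 and 10.6 CPM in JHU083, where 86 to 162 fragments were counted per sample. Every JHU083 sample lay above every vehicle sample, and within JHU083 samples 1 and 3 were the lowest. The log2 fold change was 1.55 ± 0.19 (adjusted p = 3.78e-05), a 2.93-fold higher fitted level. It was 1.21 among samples with the ribosomal loci at 0 and 1.68 among the others, and 0.96 on the log2 scale of deposited FPKM plus 1, which understates the change of low genes.

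The ratio of Trem2 to Gpnmb fell by 0.86 on the log2 scale, from 6.90 ± 0.24 to 6.04 ± 0.50 (SD, n = 5; exact permutation p = 0.0159, adjusted 0.0278). The groups overlapped, since the third vehicle sample, at 6.48, lay below the third JHU083 sample, at 6.67. Leaving out any 1 of 7 samples (vehicle 2, 4 or 5, or JHU083 1, 2, 4 or 5) gave an adjusted p of 0.0556, as did the ratio of deposited FPKM (-0.83). Among samples with the ribosomal loci at 0 the difference was -0.41. Mitf, a transcription factor gene of the MiT family that is known to control Gpnmb, went from 22.2 ± 1.71 to 36.5 ± 5.57 CPM, a log2 fold change of 0.72 ± 0.11 (adjusted p = 0.000167), and was the single gene to pass of 4 tested among MiT factors and Gpnmb relatives. Tfeb and Tfe3 were at 37.3 and 124 CPM in vehicle and at 35.3 and 133 CPM in JHU083.

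Apoe (chr7:19696109-19699188, minus strand) was the most abundant of the genes and the first or second most abundant of all loci in every sample. It stood at 23100, 19135, 18061, 22442 and 24578 CPM in vehicle and 40001, 35033, 49007, 34239 and 32936 CPM in JHU083. No JHU083 sample reached down to the vehicle range, and the third JHU083 sample was again the highest. As a share of all fragments Apoe moved from 1.84% to 2.45% in vehicle to 3.20% to 4.62% in JHU083. The log2 fold change was 0.83 ± 0.15 (adjusted p = 0.000852), and 0.73 without the third JHU083 sample.

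Lpl (chr8:68880491-68907448, plus strand) encodes lipoprotein lipase, which frees fatty acids from triglyceride-rich particles. Over all 10 samples it had the largest fitted rise of the 10 genes, with 40 as its rank among the 12500 loci. Among samples with the ribosomal loci above 0 its log2 fold change was 1.67, against 1.68 for Gpnmb. Among those at 0 it was 2.14, against 1.21 for Gpnmb. Lpl values were 5.84, 5.10, 4.75, 2.69 and 5.09 CPM in vehicle and 19.8, 11.1, 18.2, 16.7 and 23.2 CPM in JHU083. The lowest JHU083 sample, the second, was thus well above the highest vehicle sample. The mean went from 4.70 ± 1.19 to 17.8 ± 4.45 CPM, a log2 fold change of 1.91 ± 0.21 (adjusted p = 1.66e-05) or 3.76-fold. Markers of adipocytes, cells that also express Lpl and that the CD45+ gate should remove, were at or near 0. The 8 of them summed to 0.272 to 0.608 CPM in vehicle and 0.196 to 0.535 CPM in JHU083, none was abundant enough to be tested, Adipoq reached at most 1 fragment in a sample and Adrb3 had 0 fragments in every sample.

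The transcripts of the apolipoprotein and the lipase did not change by the same amount. The log2 ratio of Apoe to Lpl was 11.94, 11.86, 11.88, 13.00 and 12.23 in vehicle and 10.98, 11.62, 11.39, 11.00 and 10.47 in JHU083. Every JHU083 ratio was below every vehicle ratio, with a difference of -1.09 (exact permutation p = 0.0079, adjusted 0.0185). Of 10 lipase relatives and maturation partners 4 were tested, with 0 higher (0 also at an unadjusted p under 0.05, with DESeq2 and with limma-voom) and 2 lower. Lmf2, of the lipase maturation factor family, went from 75.8 ± 6.74 to 60.2 ± 7.18 CPM (log2 fold change -0.33 ± 0.09, adjusted p = 0.0137), without a call in either set defined by the ribosomal loci. The other was Lipg, endothelial lipase, at 5.30 ± 2.56 CPM in vehicle and 0.742 ± 0.486 CPM in JHU083.

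Over the 10 samples, the loci whose profile lay closest to Lpl were Pmp22, Tnfsf18 and S1pr1. The root mean square difference of log2 CPM, centred on each locus's mean, was 0.29, 0.37 and 0.39 respectively, against a spread of 1.01 for Lpl about its own mean. Pmp22, a gene of a tetraspan membrane protein, went from 12.3 ± 1.41 to 51.4 ± 9.13 CPM. Tnfsf18, a TNF-family ligand gene, went from 1.63 ± 0.54 to 7.61 ± 1.78 CPM, and S1pr1, a sphingosine-1-phosphate receptor gene, from 6.14 ± 1.46 to 16.4 ± 3.62 CPM.

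Uptake receptors outside the 10 genes moved in both directions: of 14, 11 were tested, 5 were higher and 3 were lower, with a median log2 fold change of 0.46. Cd36, a fatty acid and oxidised lipoprotein receptor gene, went from 6.26 ± 0.834 to 18.8 ± 9.03 CPM (log2 fold change 1.58 ± 0.28, adjusted p = 0.000635). Scarb2, a lysosomal membrane receptor gene, went from 210 ± 8.46 to 303 ± 12.2 CPM (0.53 ± 0.06, adjusted p = 2.33e-05). Lrp1, Stab1 and Slc27a1 were the other 3 higher genes, and the lower ones included the scavenger receptor genes Msr1 and Scarb1.

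Neither fatty acid-binding protein gene passed the test. Fabp4 (chr3:10204088-10208576, minus strand), the form typical of adipocytes and lipid-laden macrophages, was near the limit of what the libraries show, at 9 to 45 fragments per sample. It stood at 3.06, 1.83, 1.89, 1.56 and 0.705 CPM in vehicle and 1.84, 1.44, 3.13, 2.98 and 2.10 CPM in JHU083. The ranges overlapped almost fully, and the log2 fold change of 0.33 ± 0.33 did not pass the test (adjusted p = 0.463). It was 0.86 among samples with the ribosomal loci at 0 and -0.21 among the others, and 0.12 to 0.61 with 1 sample left out, so no direction can be given at this depth.

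Fabp5 (chr3:10012548-10016607, plus strand), the epidermal form and the more abundant of the pair, stood at 104, 111, 150, 164 and 123 CPM in vehicle and 68.1, 82.2, 122, 113 and 117 CPM in JHU083. The 2 lowest values were the first and second JHU083 samples, while the other 3 JHU083 samples lay inside the vehicle range. The log2 fold change was -0.38 ± 0.16 and did not pass the test (adjusted p = 0.0837). It was the only one of the 10 whose call changed in any setting tried or with any sample left out. The settings in which it passed as lower included those without TMM factors (-0.46, adjusted p = 0.0334), with no filter on low counts (adjusted p = 0.0132) and without the third JHU083 sample (-0.46, adjusted p = 0.0329).

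Reads of Fabp5 may be divided with a near-identical copy. The pseudogene Gm6166 matched the Fabp5 transcript at 98.3% over 409 bases and was counted at 56.9 ± 12.5 CPM in vehicle and 46.6 ± 11.9 CPM in JHU083. It was also the locus whose profile lay closest to Fabp5, with a root mean square difference of 0.09, followed by Atp9a at 0.16 and Arhgap10 at 0.17. With the fragments of both loci added, the level was 187 ± 37.4 and 147 ± 35.7 CPM and the log2 fold change -0.35 ± 0.17 (adjusted p = 0.112). The log2 ratio of Fabp4 to Fabp5 differed by 0.81 between groups (exact permutation p = 0.1032, adjusted 0.1444), with SDs of 0.86 in vehicle and 0.31 in JHU083, by 1.11 without vehicle sample 1 (adjusted p = 0.0278) and, among samples with the ribosomal loci at 0 or above 0, by 1.42 or 0.08. Of the 10 relatives of the family, 2 were tested, and Fabp3 was higher, at 0.481 ± 0.153 and 1.02 ± 0.352 CPM.

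Plin2 (chr4:86648386-86670060, minus strand) encodes perilipin 2, the droplet coat protein of cells other than adipocytes, and its protein level follows stored lipid. It stood at 436, 387, 385, 453 and 477 CPM in vehicle and 654, 609, 784, 720 and 800 CPM in JHU083. The lowest JHU083 sample was above the highest vehicle sample, and the spread within each group was small, with SDs of 9.51% and 11.5% of the mean. The log2 fold change was 0.74 ± 0.09 (adjusted p = 4.54e-05), a 1.67-fold rise.

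Plin3, a perilipin gene expressed in most cells, was at 91.7 ± 4.50 and 86.5 ± 14.8 CPM (log2 fold change -0.08 ± 0.10, adjusted p = 0.552). The log2 ratio of Plin2 to Plin3 was 2.21, 2.10, 2.19, 2.24 and 2.35 in vehicle and 3.25, 2.82, 2.84, 3.17 and 3.18 in JHU083. The ratios did not overlap and differed by 0.83 (exact permutation p = 0.0079, adjusted 0.0185). Of 19 genes of other droplet proteins and of the enzymes that fill and empty droplets, 14 were tested, with a median log2 fold change of 0.01, as over all loci. Of these 2 were higher and 0 were lower in edgeR, with 1 lower, Dgat1, at an unadjusted p under 0.05 and with DESeq2, and 0 with limma-voom. Lpin1, a phosphatidic acid phosphatase gene, went from 19.5 ± 2.87 to 34.6 ± 5.99 CPM (0.83 ± 0.13, adjusted p = 0.000342), with 0.47 and no call among samples with the ribosomal loci at 0. Abhd5, the co-activator gene of adipose triglyceride lipase, was the other (0.33 ± 0.09, adjusted p = 0.0107), without a call in either of those sets. Soat1, which esterifies cholesterol for storage, was at 195 ± 12.2 and 203 ± 8.18 CPM, and Dgat1, which makes triglyceride, at 30.4 ± 3.37 and 24.6 ± 4.13 CPM (adjusted p = 0.0559).

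**Figure D2:**
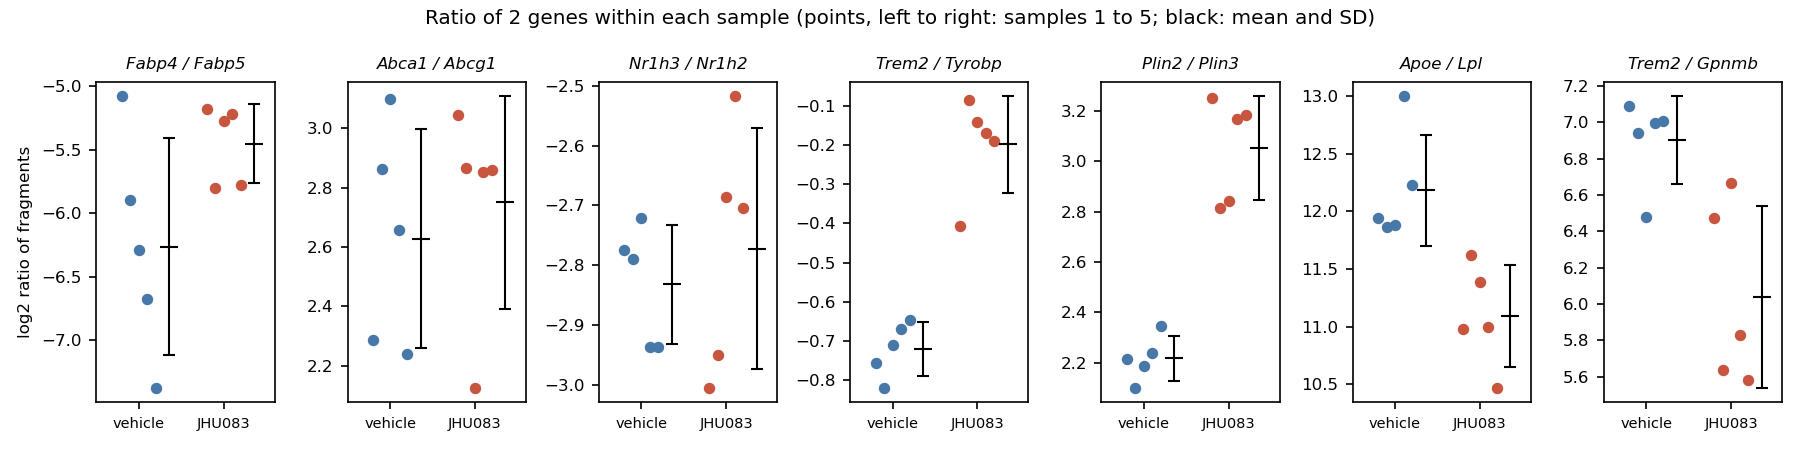
Log2 ratio of the fragments of 2 genes within each sample, plus 0.5 in each, for 7 gene pairs; each panel has its own axis, which does not start at 0, points are the 5 vehicle and 5 JHU083 samples, and black marks are mean and SD. The groups are apart for Trem2 to Tyrobp, Plin2 to Plin3 and Apoe to Lpl, and overlap in the other 4 panels.

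Abca1 (chr4:53030787-53159895, minus strand) encodes the exporter that loads cholesterol onto lipid-poor apolipoprotein. Vehicle samples stood at 270.0, 376, 452, 360 and 316 CPM and JHU083 samples at 815, 822, 444, 709 and 813 CPM. Of the JHU083 samples 4 lay above all vehicle samples, and the third lay just under the highest vehicle sample. The log2 fold change was 1.02 ± 0.16 (adjusted p = 0.000332), the third largest of the 10 after Lpl and Gpnmb, and 1.16 without the third JHU083 sample.

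Abcg1 (chr17:31057675-31117988, plus strand), encodes the exporter that passes cholesterol on to mature HDL. It stood at 55.3, 51.7, 52.7, 57.0 and 66.9 CPM in vehicle and 98.7, 113, 102, 98.1 and 112 CPM in JHU083. The groups were far apart for their spread, with SDs of 6.03 and 7.16 CPM, and the third JHU083 sample was not low here. The log2 fold change of 0.88 ± 0.08 had the smallest adjusted p of the 10 genes (6.86e-06). The log2 ratio of Abca1 to Abcg1 was 2.63 ± 0.37 in vehicle and 2.75 ± 0.36 in JHU083 (SD, n = 5; difference 0.12, exact permutation p = 0.6349, adjusted 0.6349), with the third JHU083 sample lowest at 2.13 and the others from 2.85 to 3.05.

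Of 12 further ABC sterol and lipid transporter genes 7 were tested, 3 were higher and 1 was lower, with a median log2 fold change of 0.14. Abcg2, a multidrug and urate exporter gene, went from 12.8 ± 0.581 to 21.5 ± 2.78 CPM (log2 fold change 0.75 ± 0.11, adjusted p = 0.000123). Abca2, a lysosomal transporter gene, rose by 0.31 ± 0.09 (adjusted p = 0.0116) without a call in 5 of 15 other settings, and Abca7, a phospholipid transporter gene, changed by -0.25 ± 0.09 (adjusted p = 0.0360) without a call in 6 of 15, and without one when vehicle sample 1, 4 or 5 or JHU083 sample 2, 4 or 5 was left out (-0.29 to -0.21 over all 10 such fits). Abca5 was the third higher gene, a call that limma-voom did not make.

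Nr1h3 (chr2:91184061-91202834, minus strand), the gene of LXRα, did not pass the test. It stood at 13.4, 13.0, 12.8, 13.7 and 12.9 CPM in vehicle and 12.3, 11.5, 16.0, 14.3 and 13.6 CPM in JHU083. The vehicle values lay inside the JHU083 range, and the log2 fold change of 0.04 ± 0.10 (adjusted p = 0.804) had no stable sign, turning to -0.05 without TMM factors. Its locus also carries the overlapping transcript Gm13783, which the deposited counts do not separate. Nr1h2, the gene of LXRβ, was at 94.4 ± 8.03 and 92.4 ± 8.45 CPM, and the log2 ratio of Nr1h3 to Nr1h2 differed by 0.06 (exact permutation p = 0.5159, adjusted 0.6019).

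Of 16 tested loci of LXR partners and target genes outside the 10, 9 were higher and 3 were lower, with a median log2 fold change of 0.42. Abca9, a transporter gene of the ABCA family, went from 81.9 ± 13.0 to 172 ± 36.8 CPM (1.07 ± 0.14, adjusted p = 8.26e-05). Mylip, a ubiquitin ligase gene, went from 43.8 ± 4.38 to 82.6 ± 9.10 CPM (0.91 ± 0.09, adjusted p = 1.26e-05). Apoc1, the Apoc2 locus (not with limma-voom), Arl4c, Ncoa1, Pltp, Rxra and Smpdl3a were the other higher loci. The 3 lower genes were Srebf1, a transcription factor gene, and the stearoyl-CoA desaturase genes Scd1 and Scd2. Scd1 went from 13.7 ± 3.40 to 6.82 ± 0.829 CPM (-1.003 ± 0.17, adjusted p = 0.000423).

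PPAR factors and targets held 2 higher and 0 lower of 10 tested in edgeR, with a median of 0.14; DESeq2 and limma-voom also called 0 lower, and 1, Ppard, was lower at an unadjusted p under 0.05. These were Cd36, given above, and Cpt1a, the gene of the enzyme that admits fatty acids to mitochondria, which went from 72.8 ± 4.47 to 125 ± 16.6 CPM (0.78 ± 0.09, adjusted p = 3.25e-05). Pparg itself was low, at 1.52 ± 0.445 and 2.14 ± 0.670 CPM, and did not pass.

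Lysosomal and sterol-handling genes held 6 higher and 2 lower of 12 tested, with a median of 0.39. Npc1, which moves cholesterol out of the lysosome, went from 153 ± 14.3 to 269 ± 42.1 CPM (0.81 ± 0.10, adjusted p = 6.11e-05). Cyp27a1, which makes 27-hydroxycholesterol, an oxysterol ligand of LXR, went from 31.3 ± 1.98 to 52.2 ± 4.10 CPM (0.74 ± 0.08, adjusted p = 1.66e-05). Ch25h, which makes 25-hydroxycholesterol, went from 38.5 ± 3.49 to 19.0 ± 3.88 CPM (-1.02 ± 0.13, adjusted p = 4.70e-05). Lipa, Nceh1, Pla2g15 and Smpd1, hydrolases of stored or lysosomal lipid, were the other higher genes, and Tmem97 was the other lower one.

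Other genes used to define lipid-associated macrophages held 10 higher and 2 lower of 16 tested, with a median of 0.31. Igf1, a growth factor gene, had the largest change, from 24.8 ± 10.1 to 139 ± 49.4 CPM (2.49 ± 0.31, adjusted p = 4.81e-05). Clec7a, the β-glucan receptor gene, went from 454 ± 34.4 to 816 ± 132 CPM (0.84 ± 0.11, adjusted p = 4.81e-05), and Cst7, a cystatin gene, from 4.27 ± 1.38 to 7.02 ± 2.11 CPM (0.72 ± 0.24, adjusted p = 0.0310). The call of Cst7 was lost when vehicle sample 1, 2 or 5 or JHU083 sample 3, 4 or 5 was left out (0.57 to 0.88 over all 10 such fits), without TMM factors (0.64, adjusted p = 0.0513) and within either set defined by the ribosomal loci. Axl, Cd63, Ctsb, Ctsd, Ctsl, Lilrb4a and Spp1 were higher as well, Lgals1 and Tspo were lower, and Cd9, Cd68, Itgax and Lgals3 did not pass.

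**Figure D3:**
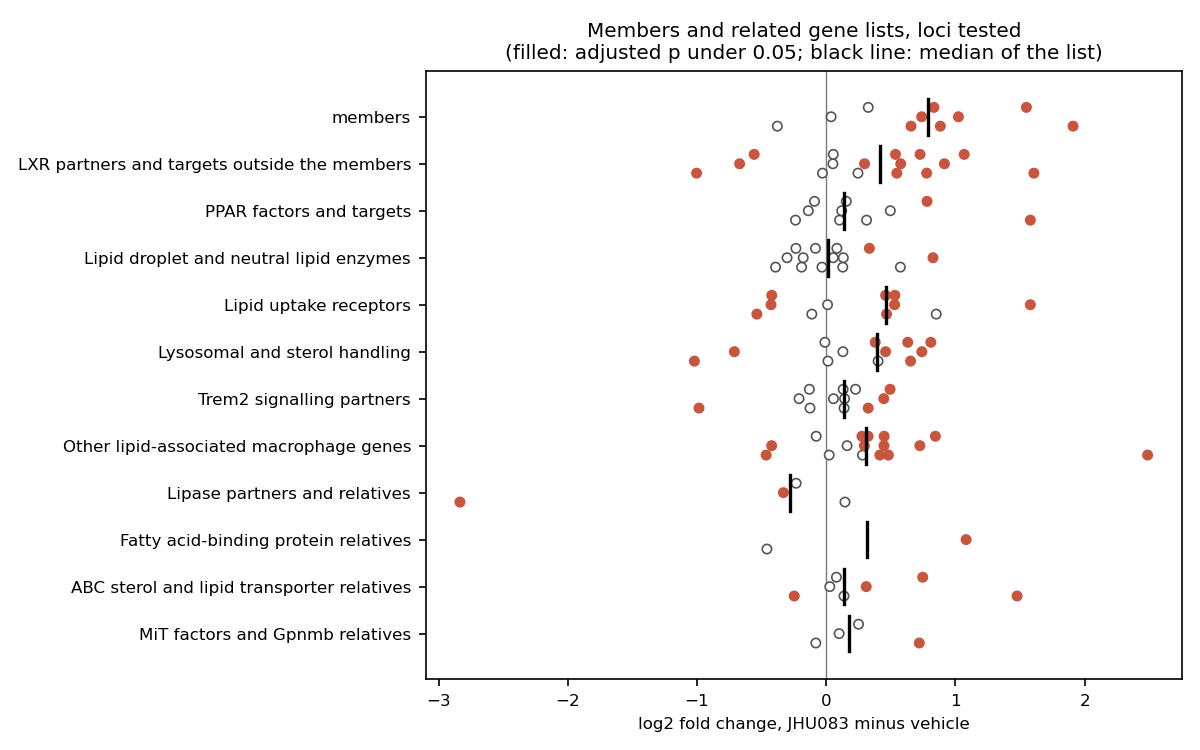
Fitted log2 fold change, JHU083 minus vehicle, of every tested locus in the 10 lipid-handling genes and in 11 lists of related genes; filled points passed at an adjusted p under 0.05, open points did not, and the black line is the median of the list. The median is 0.79 for the 10 genes, 0.42 for LXR partners and targets and 0.01 for droplet enzymes.

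Per length of transcript, on the FPKM scale, the order of the genes was led by Apoe in both groups, at 25230 ± 3026 in vehicle and 45962 ± 7305 in JHU083 (SD, n = 5). Trem2 followed, at 374 and 591 FPKM, then Plin2 at 254 and 445 FPKM, and Fabp5 at 153 and 117 FPKM. In vehicle, each of these lay apart from its neighbours in the order over all 5 samples. Abca1, Abcg1 and Nr1h3 came next, at 33.9, 15.4 and 7.77 FPKM in vehicle and 71.0, 28.4 and 8.48 FPKM in JHU083, and in JHU083 the range of Abca1 reached into that of Fabp5. Fabp4, Lpl and Gpnmb, at 2.24, 1.15 and 1.15 FPKM in vehicle, were the 3 lowest, with overlapping neighbours. In JHU083 their order was Lpl at 5.62, Gpnmb at 3.26 and Fabp4 at 2.85 FPKM, again with overlapping neighbours.

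Markers of other cells moved between the groups and are given here for the whole lists. Tumour epithelial markers, which the CD45+ gate should exclude, were lower for 10 of 10 genes and summed to 302 to 660 CPM in vehicle and 104 to 221 CPM in JHU083. Fibroblast markers were lower for 5 of 7 (4 with DESeq2), summing to 103 to 226 and 25.9 to 115 CPM. Endothelial markers summed to 136 to 228 and 46.7 to 100.2 CPM, with 1 lower and 1 higher of 5 tested. The lower gene was Pecam1, at 151 ± 32.5 and 52.5 ± 20.2 CPM, which made up most of the sum. Tie1 was higher, at 7.16 ± 1.21 and 10.6 ± 0.743 CPM, and Cdh5, Kdr and Flt1 did not pass. Macrophage markers were higher for 5 of 10 (Adgre1, Csf1r, Cx3cr1, Lyz2 and Mertk), and summed to 16210 to 19840 CPM in vehicle and 21038 to 27655 CPM in JHU083.

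Other leukocyte markers were rare, and a sum could rest on 1 or 2 genes. Eosinophil markers summed to 7.67 to 13.7 CPM in vehicle and 20.8 to 41.5 CPM in JHU083, with 2 higher of 4 tested: Ear2, at 3.51 ± 0.886 and 17.2 ± 5.34 CPM, and Siglecf, at means of 3.19 and 5.91 CPM. Prg2, an eosinophil granule gene, and Ccr3 were tested and did not pass. Their means were 1.27 and 1.72 CPM in vehicle and 2.27 and 2.12 CPM in JHU083. The granule gene Epx, at no more than 5 fragments in a sample, was at means of 0.178 and 0.0558 CPM. T and NK cell markers summed to 27.7 to 30.4 and 37.6 to 55.4 CPM, with 1 higher of 2 tested. The higher gene was Cd4, at 14.7 ± 1.37 and 31.8 ± 5.98 CPM. The Klrb1c locus did not pass in edgeR (log2 fold change -0.38 ± 0.15, adjusted p = 0.0563). It was lower with DESeq2 and with limma-voom. T cell receptor complex genes were too low to be tested. In vehicle, Cd3e, Cd3d, Cd3g, Trac and Trbc1 were at 0.515, 0.312, 0.559, 0.262 and 0.396 CPM. In JHU083 they were at 0.245, 0.320, 0.923, 0.454 and 0.421 CPM. Dendritic cell markers summed to 22.6 to 29.1 and 24.5 to 40.8 CPM, with 1 higher of 6 tested (Cd209a), and B cell markers to 2.72 to 3.77 and 3.47 to 5.14 CPM, with 1 higher of 1 tested (Cd79b), a call that DESeq2 and limma-voom did not make. Neutrophil markers summed to 36.5 to 48.8 and 13.6 to 66.1 CPM, with 2 lower of 4 tested (S100a8 and S100a9), and mast cell markers to 15.6 to 17.9 and 12.2 to 27.4 CPM, with 1 higher (Cpa3, not with limma-voom) and 1 lower (Mcpt4) of 5 tested.

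The third JHU083 sample, highest for Trem2 and Apoe and lowest for Abca1, had the lowest tumour epithelial sum (104 CPM) and the lowest fibroblast sum (25.9 CPM). The mitochondrial share of fragments was 1.53% to 2.09% in vehicle and 2.14% to 2.44% in JHU083. The part of these differences in the lipid-handling genes was not tested.

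**Figure D4:**
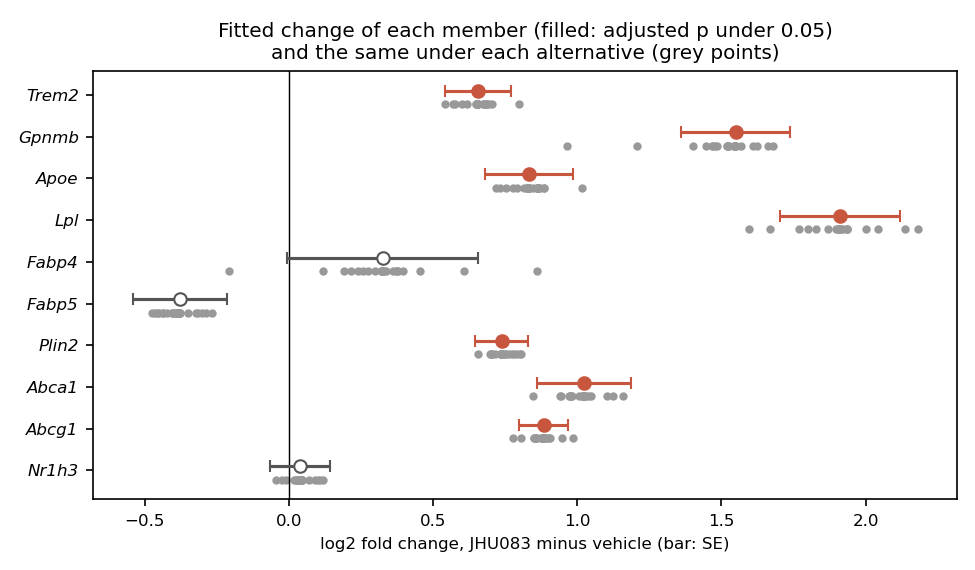
Log2 fold change of the 10 lipid-handling genes, JHU083 minus vehicle, with SE; filled points passed at an adjusted p under 0.05 and grey points give the same gene under each other setting or with a sample left out. Grey points of the 7 higher genes all lie above 0, those of Fabp5 all lie below 0, and those of Fabp4 and Nr1h3 fall on both sides.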

How the data were processed

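Polyadenylated RNA of sorted macrophages was sequenced as paired-end Illumina libraries, per the labels' protocols. The submitters' processing notes name bcl2fastq 2.17.1.14, FastQC 0.11.2, TopHat2 2.1.1 and the build GRCm38; the counting program and annotation are not given in the sources used here. Per the file headers, the authors deposited 1 table per sample with a raw count column, which holds expected counts that are not whole, and a normalized column, read from its values as FPKM. In each sample 99.8% to 100.0% of positive expected counts are whole multiples, within 0.05, of a step of 0.888 to 1.17, so fragment counts were recovered by dividing by it. Of 46957 loci, 1 without a symbol was left out (at most 0.00209% of fragments), and 1060 list several symbols, whose reads cannot be told apart.

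Loci were filtered with filterByExpr, scaled by TMM and compared with edgeR 4.0.16 (quasi-likelihood, R 4.3.3), all 10 samples, no covariate, Benjamini-Hochberg adjustment over all loci tested, threshold 0.05. The SE is the absolute log2 fold change divided by the square root of F. Ratios used fragments plus 0.5 and an exact permutation test over 252 splits (Python 3.11.15, scipy 1.17.1). The test was checked on simulated counts. The members and lists were chosen with earlier results of these data known. Genes were named as members, the up to 3 largest passing changes per list with a mean of at least 2 on the log2 CPM scale, partners of ratios, the 3 loci closest to the member with the largest rise and to that with the largest fall, and defining markers; other members of a list that passed are named without that rule, after their values were seen. A gene that the rule names is not reported here. Gene positions are from GENCODE M21. Alternatives were DESeq2 1.42.0, limma 3.58.1 with voom or log2 FPKM, other scalings, filters and subsets, a replicate block, and leaving out each sample; counting Gm6166 with Fabp5 was added after seeing the data. Counting error alone is covered by fragment numbers.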

Additional observations from a re-analysis of the deposited data

Results flagged for a closer look

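Of 90 groups of 5 values examined, 5 held a sample far from the others by Dixon's test, and chance flags about 1 in 20 groups, or 4.5 here. Lpl was low in the fourth vehicle sample, at 1.51 log2 CPM (2.69 CPM) against 4.75 to 5.84 CPM in the other vehicle samples. The log2 ratio of Trem2 to Gpnmb was low in the third vehicle sample, at 6.48 against 6.94 to 7.09.

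The other 3 were all in the third JHU083 sample. Trem2 was high there, at 9.53 log2 CPM (739 CPM against 510 to 527 CPM). Abca1 was low, at 8.79 log2 CPM (444 CPM against 709 to 822 CPM), and with it the log2 ratio of Abca1 to Abcg1, at 2.13 against 2.85 to 3.05. All 7 higher genes passed the test with this sample left out.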

How the results depend on the processing

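In each of 15 other settings and in each of 10 fits without 1 sample, 7 members were higher in JHU083; they were the 7 named above, with a largest adjusted p of 0.0422 (Abca1, only samples with the ribosomal loci at 0). The count of lower members went from 0 to 1, Fabp5, with library size alone, with no filter on low counts, with a replicate block and without JHU083 replicate 3 (range 0 to 1). Sample numbers did not pair the samples, since same-numbered deviations correlated at -0.56 to -0.14, and with a replicate block 1612 loci were higher, 1757 were lower and Fabp5 changed by -0.39 (adjusted p = 0.0153). Abhd5, Lmf2 and Abca7 did not pass with the replicate block (adjusted p = 0.0504, 0.0508 and 0.0737). For ratios the paired difference equals the difference of group means by arithmetic (Trem2 to Tyrobp 0.52, Plin2 to Plin3 0.83, Apoe to Lpl -1.09, Trem2 to Gpnmb -0.86), and no paired exact p can go under 0.0625, so the block says nothing about them. Library size alone gave 1564 higher and 3141 lower loci, or 33.2% of calls higher against 50.03%, with a median of -0.07 over all loci. Only samples with the ribosomal loci at 0 gave 532 higher and 586 lower loci, and only those above 0 gave 1276 higher; both use fewer samples. Leaving out samples gave 1821 to 2899 higher and 1900 to 2930 lower loci, the most without JHU083 replicate 3.

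The ratio of Trem2 to Gpnmb was -0.83 from deposited FPKM (adjusted p = 0.0556), -0.41 in samples with those loci at 0, and -1.02 to -0.75 with a sample left out. Fabp4 to Fabp5 was 0.0826 in samples with those loci above 0, 1.42 in those at 0 and 0.53 to 1.11 with a sample left out, passing without vehicle replicate 1. Nr1h3 to Nr1h2 ran from -0.0039 to 0.12 with a sample left out and reached 0.13 in other settings. The other causes were not tested. Among named genes, signs turned only for 5 that passed nowhere: Fabp4 (-0.21, loci above 0), Nr1h3 (-0.0457 with library size alone, -0.0094 with loci above 0, -0.0255 without JHU083 replicate 3 and up to 0.0913 without another sample), Nr1h2 (0.0034 with those loci as covariate, 0.0431 with loci at 0, 0.0082 and 0.0114 without replicate 4 of vehicle or of JHU083 and down to -0.0677 without another sample), Tyrobp (-0.0175, loci above 0) and Itgam (-0.0481 with library size alone, -0.0589 with loci above 0, -0.0001 with FPKM). Of 949 comparisons of named genes, 896 kept direction and call, and 36, in 9 genes, lost the call. Fabp4 had 9 to 45 fragments per sample, the fewest of the 10 genes.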
